A study of Neurospora crassa with 3 samples.

Results

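Sulphur control in Neurospora crassa, a filamentous fungus, was followed through 3 genes chosen by locus tag: cys-3 (NCU03536), scon-2 (NCU08563) and ars-1 (NCU06041), of 9730 genes in the count tables. All 3 were found in every table and passed the filter on low counts, as did 8561 genes in all. Poly-A RNA was sequenced with a stranded kit from mycelia of germinated conidia, grown for 18 h at 32 °C with shaking in Vogel's liquid medium. Each of 3 genotypes has 2 libraries. The genotype labelled SET-2; H3G34R, written set-2 H3G34R below, is strain N6777 and is described as joining histone H3 with arginine in place of a glycine to a deletion of set-2. The genotype labelled SET-2; ASH1(Y888F), written set-2 ash1(Y888F), is strains N6266 (replicate 1) and N6267 (replicate 2). It is described as joining a change in the H3K36 methyltransferase ASH1 to the same deletion. The genotype H3G34R, strains N5247 (replicate 1) and N5248 (replicate 2), is labelled with the H3 change alone. Its 2 libraries were not alike in mus-52, with 2 sense reads in replicate 1 and 922 in replicate 2. Each library of the other genotypes had 0 to 2 such reads. The gene qip had 1733 sense reads in H3G34R replicate 1 and 265 in replicate 2. Whether the 2 strains differ in more than the label gives was not tested. Wild-type libraries were not analysed here, so H3G34R served as the group that the others were set against.

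CYS-3 is a DNA-binding bZIP activator that turns on genes for the uptake and release of sulphur when this fungus runs short of it, and its own gene is among its known targets. SCON-2, an F-box protein with WD40 repeats, works against it: as part of a ubiquitin ligase that also holds the Skp1-type protein encoded by scon-3, it keeps the sulphur genes off when sulphur is plentiful. ARS-1 is an arylsulphatase, which frees sulphate from aromatic sulphate esters, and ars-1 is a standard readout of CYS-3 activity in this fungus.

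Sense reads in genes numbered 7.52 to 9.83 M per library and antisense reads 0.295 to 0.341 M. The gene set-2 had 123 to 322 sense reads in every library, also in those described as deletions, so the groups are named by their labels and every direction below rests on those labels. The 2 libraries of set-2 H3G34R come from 1 strain and nothing says that they are separate cultures. The p-values therefore reflect only how far these libraries vary, and that variation may be technical. For set-2 H3G34R, which is 1 strain, strain and genotype cannot be told apart. All 5 conidial markers (con-6, con-8, con-10, con-13 and eas) had reads in every library. Their summed level was 569 to 1219 CPM (reads per 1 M of the effective library size) in set-2 H3G34R, 238 to 313 CPM in set-2 ash1(Y888F) and 154 to 212 CPM in H3G34R. The markers did not move together. In set-2 H3G34R relative to H3G34R, eas (log2 4.93), con-8 (2.65) and con-10 (1.48) were higher and con-13 (−2.10) lower, at edgeR adjusted p = 0.00365, 0.00690, 0.0467 and 0.00782, and con-6 did not pass (−0.13, edgeR adjusted p = 0.709). In set-2 ash1(Y888F) relative to H3G34R, con-10 (−2.49, edgeR adjusted p = 0.0154) and con-13 (−3.06, edgeR adjusted p = 0.00538) were lower and the other 3 did not pass. The part of these markers in the results below was not tested. In bulk RNA, fewer cells that express a gene and less RNA per cell cannot be told apart.

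The sense level of the activator gene cys-3 differed little between genotypes. It stood at 268 and 264 CPM in the set-2 H3G34R libraries, at 290 and 270 CPM in the set-2 ash1(Y888F) libraries, and at 224 and 232 CPM in the H3G34R libraries. The H3G34R libraries were the lowest and did not overlap with the other 4. Lack of overlap was not counted over all genes, so here and below it sets no gene apart. The means were 266 ± 2.81, 280 ± 14.03 and 228 ± 5.63 CPM in the same order (SD, n = 2 each). By the quasi-likelihood test of edgeR, with p-values adjusted over all genes after Benjamini and Hochberg, set-2 ash1(Y888F) was above H3G34R by 0.30 on the log2 scale (SE 0.103, adjusted p = 0.0474), or 1.23-fold. The difference of set-2 H3G34R from H3G34R was 0.22 (95% interval −0.02 to 0.47, adjusted p = 0.101) and that from set-2 ash1(Y888F) was −0.08 (95% interval −0.32 to 0.17, adjusted p = 0.596). The 1 call for cys-3 lay close to the threshold. It was lost with DESeq2 size factors in edgeR (adjusted p = 0.0521), and in edgeR without set-2 H3G34R replicate 1 (0.0825) or 2 (0.0790), set-2 ash1(Y888F) replicate 1 (0.0866) or H3G34R replicate 1 (0.225) or 2 (0.156).

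The repressor gene scon-2 was lower in set-2 H3G34R than in both other genotypes. Its level was 36.8 and 35.5 CPM in set-2 H3G34R, 52.9 and 54.5 CPM in set-2 ash1(Y888F), and 47.8 and 48.3 CPM in H3G34R. The libraries of the 3 genotypes did not overlap. In set-2 H3G34R, scon-2 was 1.33-fold lower than in H3G34R, a log2 value of −0.41 (SE 0.109, edgeR adjusted p = 0.0155). Against set-2 ash1(Y888F) it was 1.48-fold lower, −0.57 (SE 0.110, edgeR adjusted p = 0.00877). Between set-2 ash1(Y888F) and H3G34R the log2 difference was 0.16 (95% interval −0.10 to 0.42, edgeR adjusted p = 0.252). The edgeR call against H3G34R was lost without set-2 H3G34R replicate 1 (adjusted p = 0.0542) or 2 (0.0808) and without H3G34R replicate 1 (0.0739) or 2 (0.0808). The call against set-2 ash1(Y888F) did not hold without set-2 H3G34R replicate 2 (0.0617).

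The arylsulphatase gene ars-1 differed most of the 3. It had 26 and 17 sense reads in the set-2 H3G34R libraries, 30 and 38 in the set-2 ash1(Y888F) libraries, and 177 and 213 in the H3G34R libraries, which corresponds to 2.62 and 1.91, 4.07 and 5.64, and 17.1 and 20.4 CPM. Both H3G34R libraries were well above the others, and the 3 genotypes did not overlap. In the authors' own comparisons with wild type, ars-1 was called higher in H3G34R (log2 4.52). There it was not called in set-2 H3G34R (1.31) or set-2 ash1(Y888F) (0.20). In set-2 H3G34R ars-1 was 8.17-fold lower than in H3G34R, a log2 value of −3.03 (SE 0.271, edgeR adjusted p = 0.000205). In set-2 ash1(Y888F) it was 3.86-fold lower than in H3G34R, −1.95 (SE 0.254, edgeR adjusted p = 0.00117). These edgeR calls held under each alternative tried, with log2 values from −3.30 to −2.82 and from −2.20 to −1.72 when each library was left out in turn. The lower level in set-2 H3G34R than in set-2 ash1(Y888F), a log2 value of −1.08 (SE 0.305, edgeR adjusted p = 0.0312), rests on 17 to 38 reads per library. It was lost in edgeR without set-2 H3G34R replicate 1 (adjusted p = 0.0684) or 2 (0.149), set-2 ash1(Y888F) replicate 2 (0.103), or H3G34R replicate 1 (0.0560) or 2 (0.0575).

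Among the members, 2 of 3 were lower and none was higher in set-2 H3G34R than in H3G34R. Of all tested genes, 61.7% were called in either direction in that comparison, with 31.1% of all tested genes lower and 30.7% higher. Between set-2 ash1(Y888F) and H3G34R, 1 was higher and 1 lower, with 51.8% of all genes called. Between set-2 H3G34R and set-2 ash1(Y888F), 2 of 3 were lower, with 38.1% of all genes called and 19.9% lower. With shares this high, a call by itself sets no member apart, and the 3 comparisons share libraries. The sizes differed: ars-1 differed from H3G34R by −3.03 and −1.95 on the log2 scale, against a median absolute difference over all genes of 0.68 and 0.57, while cys-3 differed by 0.22 and 0.30. The order of the genotypes also differed between members, with ars-1 highest in H3G34R, and cys-3 and scon-2 highest in set-2 ash1(Y888F). Neighbours in these orders whose difference did not pass in edgeR were set-2 H3G34R with each of the other genotypes for cys-3, and set-2 ash1(Y888F) and H3G34R for scon-2. The libraries of these pairs did not overlap, but how common that is among all genes was not counted.

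**Figure D1:**
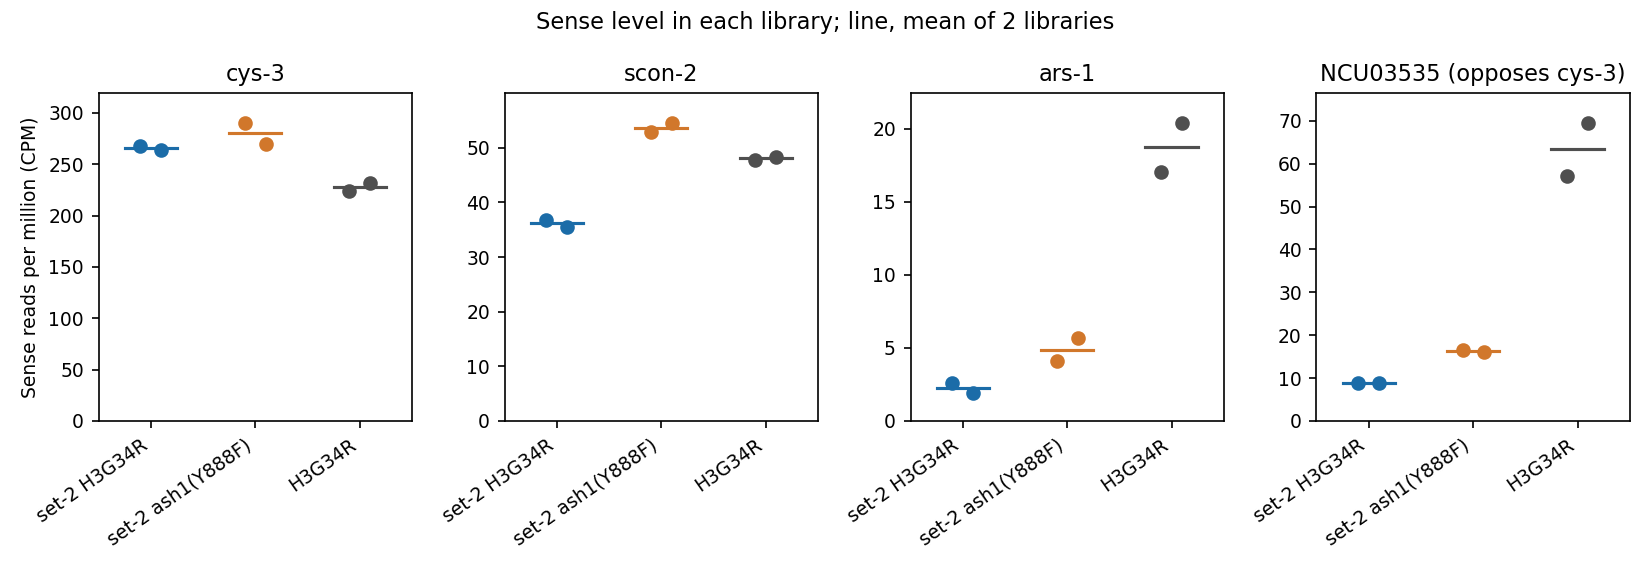
Sense level in CPM of cys-3, scon-2, ars-1 and the gene that opposes cys-3, NCU03535, in each of 6 libraries (points) with the mean of each genotype (line); each panel has its own axis from 0. The H3G34R libraries are the highest for ars-1 and for NCU03535 and the lowest for cys-3.

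The strand columns differed between the members. For scon-2 and ars-1 the reads counted without regard to strand equalled the sum of both strands in all 6 libraries, so no read of theirs was lost to a gene on the opposite strand. For cys-3 they fell short of that sum by 321 and 278 reads in set-2 H3G34R, 230 and 200 in set-2 ash1(Y888F), and 705 and 856 in H3G34R. Over all genes, 21.4% to 22.8% had such a shortfall in a library. The shortfall of cys-3 equalled that of its neighbour NCU03535 read for read in every library. In the reference table the spans of these genes overlap on chromosome II. Reads without regard to strand numbered 0 for NCU03535 in 5 libraries and 1 in set-2 ash1(Y888F) replicate 2, so that all its other reads also lay in cys-3, and its sense strand was the antisense strand of cys-3.

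Antisense reads of cys-3 were many in H3G34R and few in the other genotypes. They numbered 91 and 91 in set-2 H3G34R, 137 and 123 in set-2 ash1(Y888F), and 597 and 741 in H3G34R. As a share of the reads on both strands of cys-3, they made up 3.32% (exact 95% interval 2.68% to 4.06%) and 3.73% (3.01% to 4.56%) in set-2 H3G34R. In set-2 ash1(Y888F) they made up 6.02% (5.08% to 7.08%) and 6.33% (5.29% to 7.51%). In H3G34R the share was 20.5% (19.0% to 22.0%) and 23.4% (21.97% to 24.95%). Such intervals hold no error but that of counting, as molecules were not tagged. In edgeR's test of antisense counts over 4299 genes, cys-3 antisense reads were lower than in H3G34R by −2.73 on the log2 scale in set-2 H3G34R (SE 0.218, adjusted p = 1.89e-09) and by −1.80 in set-2 ash1(Y888F) (SE 0.209, adjusted p = 5.78e-07). Set-2 H3G34R was also below set-2 ash1(Y888F), by −0.93 (edgeR adjusted p = 0.00261). Of all genes in that test, 40.8%, 45.5% and 37.5% were called in these comparisons, and 14.3%, 6.47% and 28.2% were lower against 26.5%, 39.0% and 9.23% higher. The last call was lost in edgeR without set-2 H3G34R replicate 1 (adjusted p = 0.0529) and with antisense library sizes (adjusted p = 0.0535).

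Nearly all of these antisense reads were also the sense reads of NCU03535. Sense reads of NCU03535 numbered 87 and 78 in set-2 H3G34R, 122 and 109 in set-2 ash1(Y888F), and 594 and 726 in H3G34R. That left 4 and 13, 15 and 14, and 3 and 15 antisense reads of cys-3 outside NCU03535 in the same libraries, or 0.136% to 0.804% of the reads of cys-3 outside NCU03535. By that share both set-2 ash1(Y888F) libraries, at 0.733% and 0.804%, lay above the other 4, while set-2 H3G34R (0.165% and 0.601%) and H3G34R (0.136% and 0.650%) overlapped. These few reads were not tested. The level of NCU03535 was 8.77 ± 0.0202 CPM in set-2 H3G34R, 16.4 ± 0.249 CPM in set-2 ash1(Y888F) and 63.4 ± 8.62 CPM in H3G34R (SD, n = 2 each). It was 7.22-fold lower in set-2 H3G34R (log2 −2.85, SE 0.161, edgeR adjusted p = 4.96e-05) and 3.87-fold lower in set-2 ash1(Y888F) (log2 −1.95, SE 0.154, edgeR adjusted p = 0.000190) than in H3G34R. These are largely the same reads as the antisense of cys-3 and no second line of evidence. Whether a read on that strand comes from NCU03535 or from another transcript across cys-3 cannot be told from gene counts.

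On its own strand, cys-3 had 234 and 200 reads within NCU03535 in set-2 H3G34R, 108 and 92 in set-2 ash1(Y888F), and 111 and 130 in H3G34R. They made up 8.82% (exact 95% interval 7.77% to 9.97%) and 8.51% (7.41% to 9.71%) of cys-3 sense reads in set-2 H3G34R. The share was 5.05% (4.16% to 6.06%) and 5.06% (4.10% to 6.17%) in set-2 ash1(Y888F), and 4.78% (3.95% to 5.73%) and 5.37% (4.51% to 6.34%) in H3G34R. Both set-2 H3G34R libraries lay above the other 4. These reads are the antisense count of NCU03535, which was higher in set-2 H3G34R than in H3G34R by a log2 value of 0.99 (SE 0.211, edgeR adjusted p = 0.000660) and than in set-2 ash1(Y888F) by 0.70 (SE 0.213, edgeR adjusted p = 0.0135). The cys-3 sense count as a whole did not pass in either comparison. Whether the share itself differed was not tested.

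**Figure D2:**
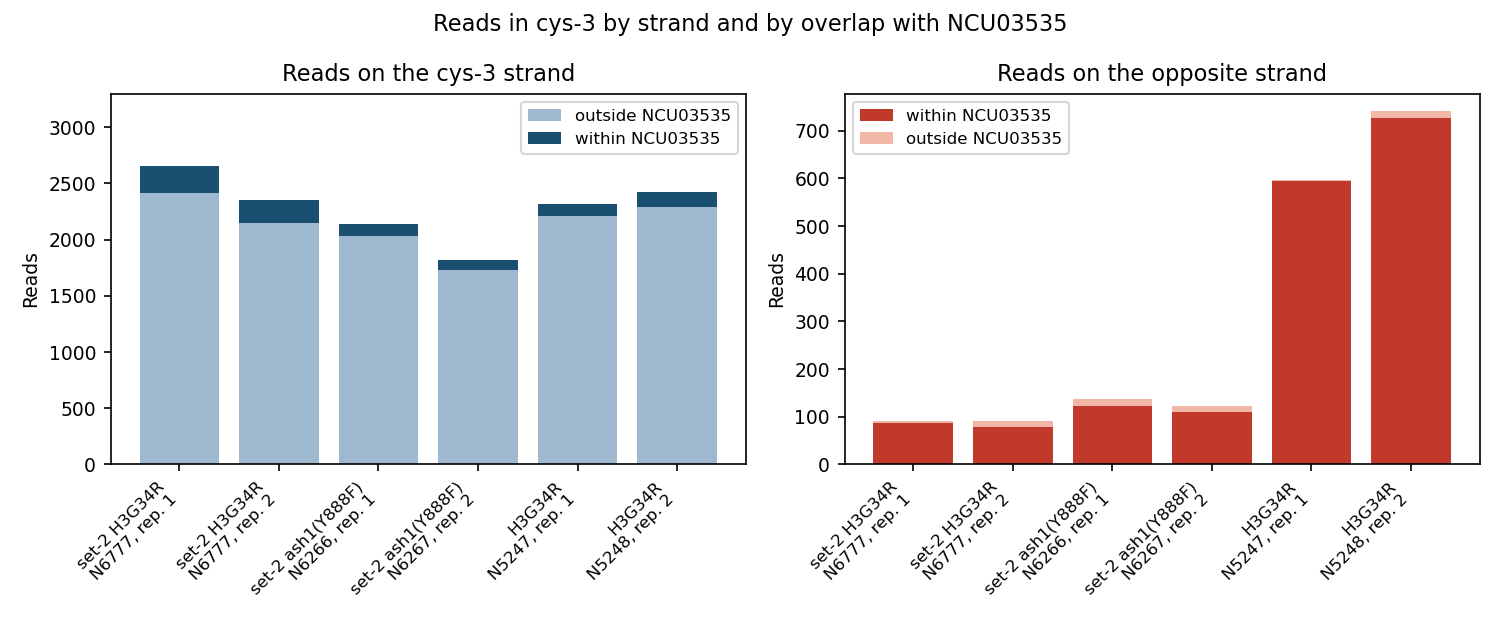
Reads in cys-3 on its own strand (left) and on the opposite strand (right) in each library, split into reads within and outside NCU03535; bars are read counts from 0 and the axes differ. On the opposite strand the 2 H3G34R libraries reach 597 and 741 reads, against 91 to 137 in the other 4, almost all of them within NCU03535.

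The other members had few antisense reads. For scon-2 they numbered 7 and 8 in set-2 H3G34R, 12 and 9 in set-2 ash1(Y888F), and 7 and 4 in H3G34R. In raw reads set-2 H3G34R and H3G34R met at 7. Scaled to the sense library sizes they stood at 0.707 and 0.898 against 0.675 and 0.383 CPM, without overlap. Set-2 ash1(Y888F) was above H3G34R by a log2 value of 1.47 (SE 0.590, edgeR adjusted p = 0.0469), where 39.0% of all genes were higher, a call lost whichever library was left out (adjusted p = 0.0617 to 0.263). Antisense reads of ars-1 numbered 4 and 0 in set-2 H3G34R, 2 and 0 in set-2 ash1(Y888F), and 8 and 14 in H3G34R, too few to pass the filter. A count of 0 allowed up to 0.337 CPM in the set-2 H3G34R library and 0.446 in the set-2 ash1(Y888F) library, taking 3 counts as the limit.

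Genes next to the members gave no common pattern. Beside ars-1, NCU06042 was at 248 ± 11.5 CPM in set-2 H3G34R, 177 ± 61.6 CPM in set-2 ash1(Y888F) and 148 ± 63.0 CPM in H3G34R, and passed in none of the comparisons. On its other side, NCU06040 was at 4.60 ± 0.633, 2.40 ± 0.246 and 7.25 ± 0.979 CPM in the same order (SD, n = 2 each), lower in set-2 ash1(Y888F) than in H3G34R by a log2 value of −1.58 (edgeR adjusted p = 0.00359). In set-2 H3G34R it was higher than in set-2 ash1(Y888F), by 0.93 (edgeR adjusted p = 0.0415), where ars-1 was lower. Beside scon-2, NCU08564 was low in all genotypes, at 0.814 to 1.20 CPM. NCU08561 was at 16.4 ± 3.41 CPM in set-2 H3G34R, 23.9 ± 0.567 CPM in set-2 ash1(Y888F) and 25.4 ± 6.31 CPM in H3G34R (log2 −0.63 for set-2 H3G34R over H3G34R, edgeR adjusted p = 0.0486). On the other side of cys-3, NCU03537 was at 23.5 to 26.6 CPM in the 3 genotypes and passed in no comparison.

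Likeness to a member was measured as the root mean square difference of log2(CPM + 1), centred on each gene's mean, over the 6 libraries. By that measure the gene nearest to ars-1 among all tested genes was NCU03535, the gene that opposes cys-3, at 0.162. The next were NCU00121 (0.172), NCU04547 (0.174), NCU07652 (0.175) and NCU00249 (0.206). NCU00121 was at 76.5 ± 1.14 CPM in set-2 H3G34R, 139 ± 23.5 CPM in set-2 ash1(Y888F) and 384 ± 50.9 CPM in H3G34R. NCU07652 had no reads in set-2 H3G34R and stood at 1.14 ± 0.0732 CPM in set-2 ash1(Y888F) and 6.05 ± 0.511 CPM in H3G34R (SD, n = 2 each). With a pseudocount of 0.25, 2 of the 5 stayed among the nearest, NCU03535 in first place and NCU00249. The measure rests on 6 libraries that are 3 pairs of replicates.

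**Figure D3:**
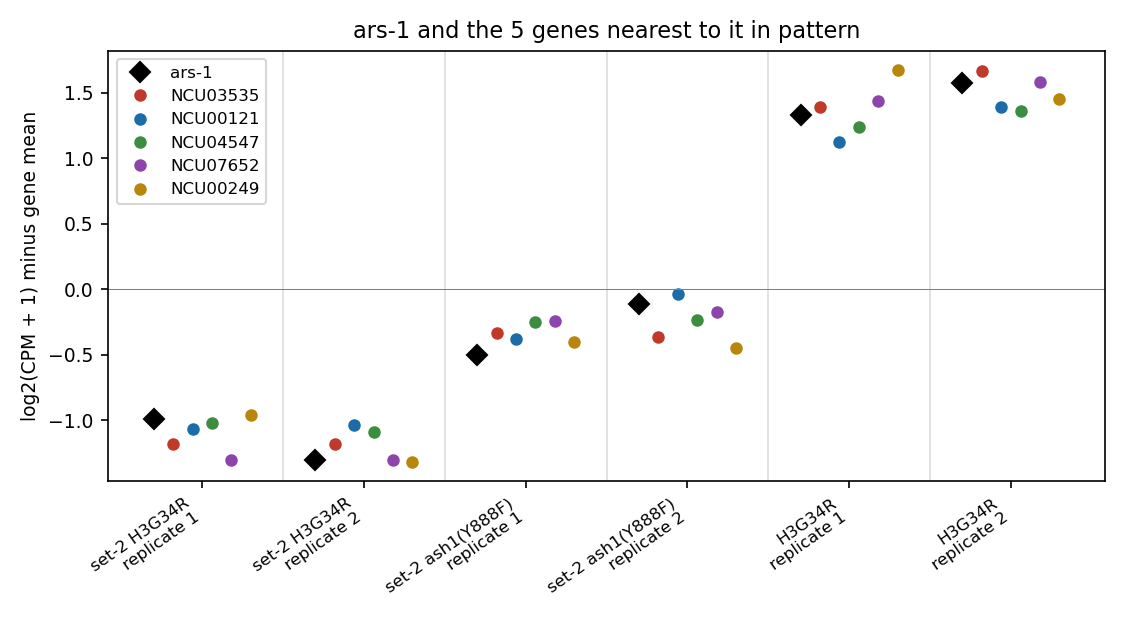
Level of ars-1 (diamonds) and of the 5 genes nearest to it in pattern (circles) in each library, as log2(CPM + 1) minus each gene's mean over the 6 libraries. All 6 genes are above their mean in both H3G34R libraries and lowest in the set-2 H3G34R libraries, with NCU03535 at a root mean square difference of 0.162 from ars-1.

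The genes nearest to cys-3 and scon-2 had smaller differences from them. The measure is not scaled to how much a gene varies, so smaller values here do not mean closer variation together. Over the 6 libraries, the correlation with the 5 nearest genes was 0.956 to 0.969 for cys-3 and 0.975 to 0.989 for scon-2. For ars-1 it was 0.984 to 0.994. For cys-3 they were NCU01002 (0.0323), NCU02563 (0.0366), nuo78, which encodes a subunit of respiratory complex I (0.0388), rpt-5, a proteasome ATPase gene (0.0446), and NCU05422 (0.0454). For scon-2 they were NCU05272 (0.0401), the complex I assembly gene cia84 (0.0410), NCU08022 (0.0506), NCU01961 (0.0523) and the protein kinase gene stk-48 (0.0530). As an example, cia84 was at 77.0 ± 3.78 CPM in set-2 H3G34R, 112 ± 3.68 CPM in set-2 ash1(Y888F) and 101 ± 2.92 CPM in H3G34R. These lists held the same 5 genes each with a pseudocount of 0.25.

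The other sulphur genes were taken by symbol, as every gene named cys-, met- or scon- with a number and eth-1, which gave 16 besides the members, all tested. In set-2 H3G34R against H3G34R, 2 were higher, 9 lower and 5 did not pass, with a median log2 difference of −0.42 against −0.01 over all genes. In set-2 ash1(Y888F) against H3G34R, 7 were higher, 2 lower and 7 did not pass, with a median of 0.30 against −0.00136 over all genes. In set-2 H3G34R against set-2 ash1(Y888F), 11 were lower, 5 did not pass and none was higher, with a median of −0.58 against 0.02 over all genes. Of all genes, 31.1%, 25.5% and 19.9% were lower and 30.7%, 26.3% and 18.2% higher in these comparisons. The counts depended on single libraries, and so did those over all genes. In the first comparison fewer genes were called, in the list and over all genes, when any library of either genotype was left out. The same held in the last comparison when either set-2 H3G34R library was left out.

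Within sulphate uptake and reduction, cys-14, which encodes a sulphate permease under CYS-3 control, passed in no comparison. Its level was 308 and 349 CPM in set-2 H3G34R, 373 and 435 CPM in set-2 ash1(Y888F), and 301 and 357 CPM in H3G34R, with overlap between set-2 H3G34R and H3G34R. The log2 difference of set-2 H3G34R from H3G34R was −0.00 (SE 0.143, edgeR adjusted p = 0.995), where ars-1 differed by −3.03. The ATP sulphurylase gene cys-11, which activates sulphate, was at 240.3 and 242 CPM in set-2 H3G34R, 437 and 344 CPM in set-2 ash1(Y888F), and 535 and 546 CPM in H3G34R. It was lower in set-2 H3G34R by a log2 value of −1.17 (edgeR adjusted p = 0.000597) and in set-2 ash1(Y888F) by −0.47 (edgeR adjusted p = 0.0274). Of the sulphite reductase genes, cys-2 was lower in set-2 H3G34R than in H3G34R (−0.58, edgeR adjusted p = 0.00541), and cys-4 stood at 429 ± 35.2 CPM in set-2 H3G34R, 543 ± 53.6 CPM in set-2 ash1(Y888F) and 438 ± 14.7 CPM in H3G34R, passing in no comparison. The thioredoxin reductase gene cys-9 was at 65.3 ± 1.58 CPM in set-2 H3G34R, 109 ± 22.2 CPM in set-2 ash1(Y888F) and 102 ± 2.86 CPM in H3G34R (SD, n = 2 each), lower in set-2 H3G34R than in H3G34R by −0.64 (edgeR adjusted p = 0.00886).

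In the methionine branch, 4 of the 5 met- genes were higher in set-2 ash1(Y888F) than in H3G34R, and all 5 were lower in set-2 H3G34R than in set-2 ash1(Y888F), where 26.3% of all genes were higher and 19.9% lower in these comparisons. The met- genes were not tested as a group. Calls of the whole list in the last comparison were fewer when either set-2 H3G34R library was left out, as were calls over all genes. The methionine synthase gene met-8 was at 2857 and 2937 CPM in set-2 H3G34R, 9643 and 7709 CPM in set-2 ash1(Y888F), and 4637 and 4983 CPM in H3G34R. It was lower in set-2 H3G34R (−0.73, edgeR adjusted p = 0.00750) and higher in set-2 ash1(Y888F) (0.85, edgeR adjusted p = 0.00527) than in H3G34R. The homoserine acetyltransferase gene met-5 (0.67), the cystathionine gamma-synthase gene met-7 (0.85) and the folylpolyglutamate synthase gene met-6 (1.35) were also higher in set-2 ash1(Y888F) than in H3G34R, at edgeR adjusted p = 0.00377, 0.000773 and 0.000527. Of these, met-6 alone was higher in set-2 H3G34R as well (0.87, edgeR adjusted p = 0.00202). The S-adenosylmethionine synthetase gene eth-1 was at 557 and 470 CPM in set-2 H3G34R, 1758 and 1388 CPM in set-2 ash1(Y888F), and 1744 and 1781 CPM in H3G34R. Only the set-2 H3G34R libraries stood apart, with a 3.43-fold fall relative to H3G34R (log2 −1.78, SE 0.163, edgeR adjusted p = 0.000220).

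Among the rest, cys-18 was at 1346 ± 2.01 CPM in set-2 H3G34R, 3935 ± 461 CPM in set-2 ash1(Y888F) and 1854 ± 93.2 CPM in H3G34R, and cys-16 at 21.3 ± 3.17, 28.0 ± 3.51 and 54.4 ± 8.04 CPM in the same order. In log2 terms cys-18 was 1.09 higher in set-2 ash1(Y888F) than in H3G34R (edgeR adjusted p = 0.00109). In set-2 H3G34R, cys-18 differed by −0.46 from H3G34R (edgeR adjusted p = 0.0236) and by −1.55 from set-2 ash1(Y888F) (edgeR adjusted p = 0.000911). From H3G34R, cys-16 differed by −1.35 in set-2 H3G34R (edgeR adjusted p = 0.000938) and by −0.95 in set-2 ash1(Y888F) (edgeR adjusted p = 0.00512). The Skp1 gene scon-3, whose product partners SCON-2, was higher in set-2 H3G34R (0.41, edgeR adjusted p = 0.0156) and in set-2 ash1(Y888F) (0.48, edgeR adjusted p = 0.0102) than in H3G34R. Its level was 753 ± 24.97 CPM in set-2 H3G34R, 793 ± 34.5 CPM in set-2 ash1(Y888F) and 569 ± 1.75 CPM in H3G34R (SD, n = 2 each). Thus scon-2 fell and scon-3 rose in set-2 H3G34R relative to H3G34R.

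**Figure D4:**
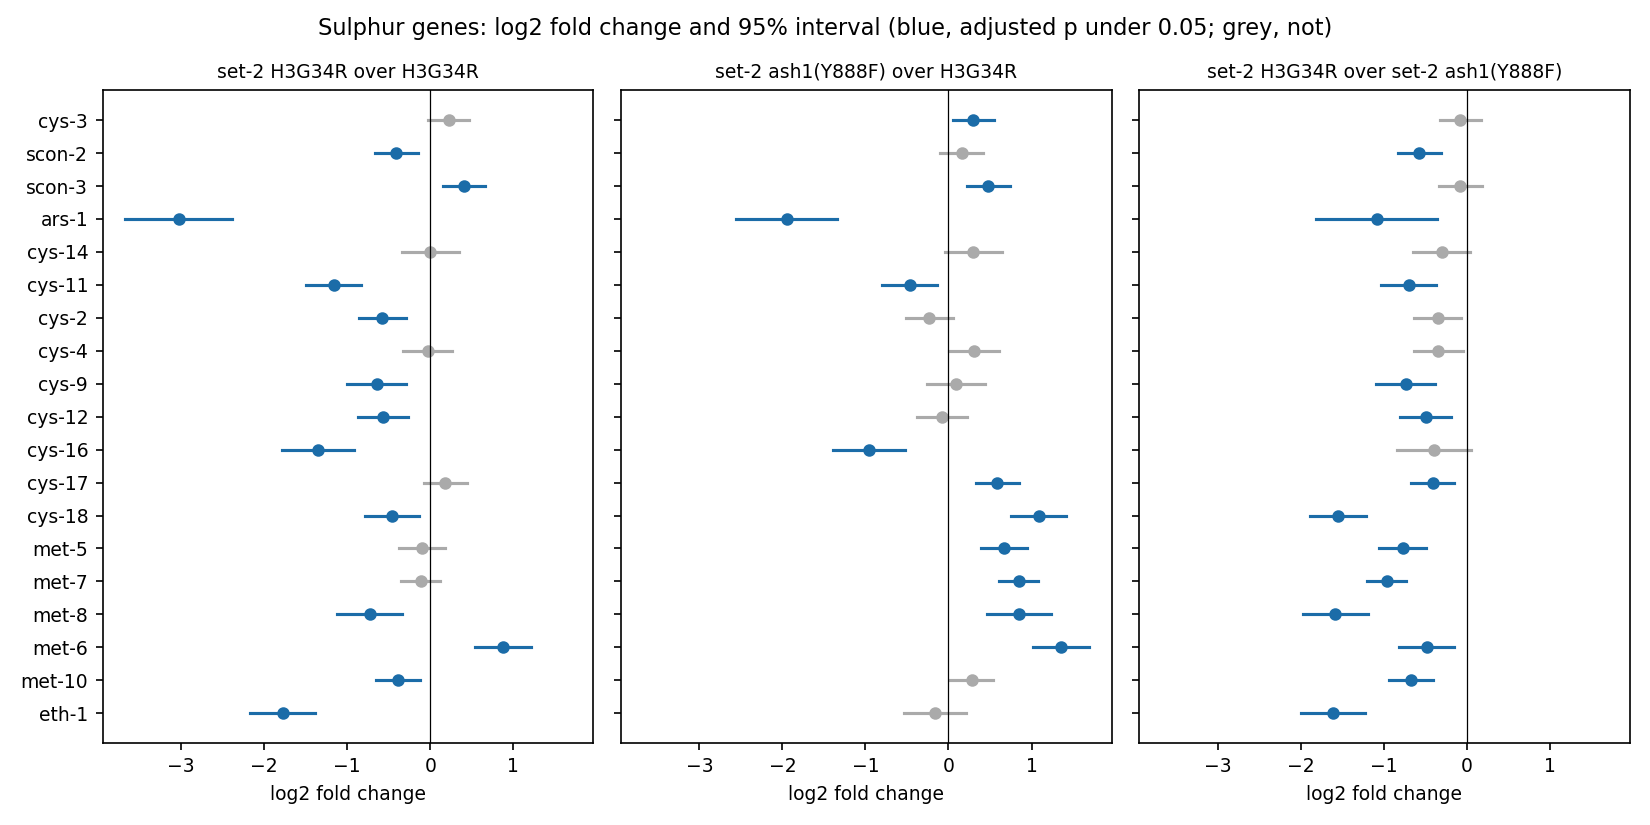
Log2 fold change with its 95% interval for the 3 members and the 16 other sulphur genes in each comparison; blue marks an adjusted p under 0.05 in edgeR and grey the rest. In set-2 H3G34R over H3G34R, ars-1 lies at −3.03 and eth-1 at −1.78, while cys-14 lies at −0.00.

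The authors' deposited tables compare each genotype with wild type. Mutant levels of cys-3 derived from them lay −0.0012 to 0.011 on the log2 scale from counts without regard to strand. Those counts leave out cys-3 reads within NCU03535, so they are not the sense counts used above. In the authors' deposited table for set-2 H3G34R, cys-3 was higher than in wild type by 0.68 on the log2 scale (SE 0.116, adjusted p = 2.09e-08) and scon-2 lower, at −1.54 (SE 0.150, adjusted p = 1.36e-23). There ars-1 stood at 1.31 (SE 0.742, adjusted p = 0.133). In the authors' deposited table for set-2 ash1(Y888F), cys-3 was lower than in wild type, at −0.86 (SE 0.215, adjusted p = 0.000793). In that table scon-2 stood at −0.18 (SE 0.251, adjusted p = 0.734) and ars-1 at 0.20 (SE 0.513, adjusted p = 0.871). In the authors' deposited table for H3G34R, cys-3 was higher, at 0.66 (SE 0.115, adjusted p = 2.69e-08), and scon-2 lower, at −1.01 (SE 0.136, adjusted p = 4.99e-13). That table gave ars-1 as higher by 4.52 (SE 0.448, adjusted p = 4.62e-23). Of all genes with an adjusted p, 51.3%, 17.3% and 64.5% were called in these tables, in the order given. Higher calls made up 24.9%, 10.8% and 33.6% of genes and lower calls 26.4%, 6.42% and 30.9%.

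The wild-type levels derived from these tables differed between tables for the members. From the mean and the fold change in each of the authors' deposited tables, and on the assumption of as many wild-type as mutant libraries, cys-3 had a wild-type level of 1554 normalised counts in the set-2 H3G34R table, 3338 in the set-2 ash1(Y888F) table and 1557 in the H3G34R table. The mutant levels were 2496, 1836 and 2461 normalised counts. Normalised counts of different tables are on different scales. Wild types were then centred on the median over 6148 genes, kept for a higher mean count and a limited fold change in every table. By this measure the wild type of the set-2 ash1(Y888F) table exceeded that of the H3G34R table by a log2 value of 1.65 for cys-3 and of 2.13 for ars-1. For scon-2 it lay below by 0.84, a log2 value of −0.84. The median absolute difference over those genes was 0.66, and 12.98% and 39.9% of them lay at least as far apart as cys-3 and scon-2. For ars-1 the share was 6.31%, but ars-1 was not among those genes. Its derived wild-type levels were only 29.1 normalised counts in the set-2 ash1(Y888F) table and 9.73 in the H3G34R table. Between the wild types of the set-2 H3G34R and H3G34R tables, the members differed by 0.0119 or less, with a median absolute difference of 0.0011. Why cys-3 has opposite signs in the authors' deposited tables was not tested. Per the design text, the wild-type controls come from other deposited series. Which of them went into which table is not given in the sources used here.

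**Figure D5:**
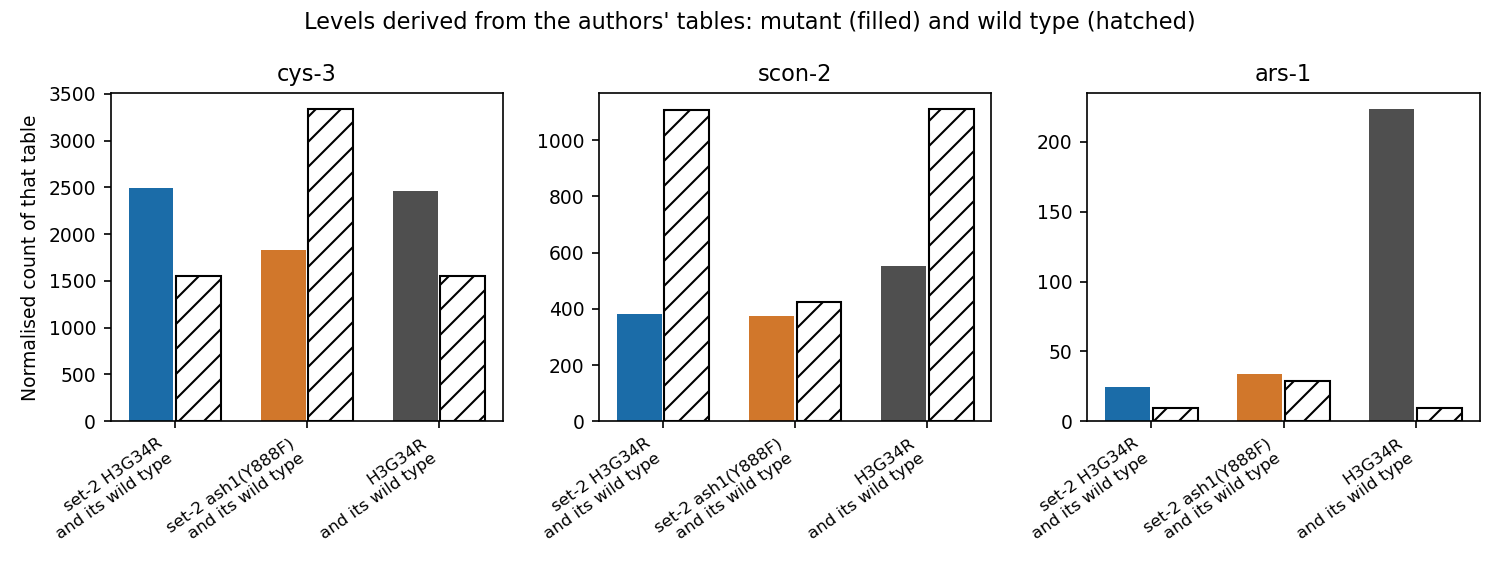
Mutant level (filled) and wild-type level (hatched) of each member, derived from the authors' deposited table for each genotype, in normalised counts of that table; bars start at 0, panels have their own axes, and scales differ between tables. The wild-type level of cys-3 is 3338 in the set-2 ash1(Y888F) table, against 1554 and 1557 in the other tables.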

How the data were processed

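Per the submitters' processing notes the authors used STAR 2.6.0 and DESeq2 1.18.1. The authors deposited raw counts per gene for each library, once without regard to strand and once per strand; the genome build is not given in the sources used here. The strand column with more reads in genes was taken as sense. Reads not assigned to a gene (15.0% to 22.9% of reads) were left out. Each library was taken as a replicate because the design text speaks of duplicates. The 2 files of a genotype were not copies of each other, since their counts differed by more than sampling (chi-square per degree of freedom 11.1 to 36.6), which says nothing of whether they are separate cultures.

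The deposited comparison tables have no header. By their values they hold the authors' mean normalised signal, log2 fold change, standard error, Wald score, and p-value with its adjusted form. Derived mutant levels differed from the counts without regard to strand by −0.0775 to 0.011 on the log2 scale for the members.

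Sense counts were tested with edgeR 4.0.16 (glmQLFTest, TMM, filterByExpr, all 6 libraries, no covariates, two-sided, Benjamini-Hochberg over all genes at 0.05), in R 4.3.3. Standard errors are the log2 value over the root of F. Antisense counts used the sense library sizes. Alternatives used DESeq2 1.42.0, DESeq2 size factors, no filter, counts without regard to strand, only the genotypes compared, and each library left out. Figures and tables used Python 3.11.15 with matplotlib 3.10.9, scipy 1.17.1, pandas 2.3.3 and numpy 2.4.6.

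Symbols and neighbours came from a RefSeq table of assembly NC12, which lists 9729 of the 9730 genes; it gives no descriptions, so the sulphur list rests on symbols, and gene lengths were not used, so levels are not compared between genes. The genes named are the members, the gene on each side of a member, the 5 genes most like each member, and called genes of the sulphur list. Of those called genes, cys-12, cys-17 and met-10 are not described singly. The list genes cys-14 and cys-4, which were not called, are named for their roles. Also named are the conidial markers, set-2, mus-52 and qip. Members and lists were chosen with earlier results of these data known.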

Additional observations from a re-analysis of the deposited data

How the results depend on the processing

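The calls of ars-1 and of NCU03535 in both genotypes labelled set-2 against H3G34R kept their direction and their side of the threshold under every alternative that gave a value. No result for a member changed sign. The edgeR call of cys-3 in set-2 ash1(Y888F) over H3G34R was lost with DESeq2 size factors (log2 0.28, adjusted p = 0.0521), with no filter (0.30, adjusted p = 0.0527), with DESeq2 (0.28, adjusted p = 0.0572) and with only the genotypes compared (0.27, adjusted p = 0.0864), and ranged from 0.25 to 0.35 with 1 library left out. In set-2 H3G34R over set-2 ash1(Y888F), ars-1 was lost with only the genotypes compared (−1.08, edgeR adjusted p = 0.0644) and antisense of cys-3 with antisense library sizes (−0.56, edgeR adjusted p = 0.0535). With 1 library left out they ranged from −1.35 to −0.83 and from −1.001 to −0.87. Likewise scon-2 ranged from −0.45 to −0.38 over H3G34R and from −0.62 to −0.54 over set-2 ash1(Y888F) in set-2 H3G34R, and its antisense from 1.12 to 1.92 in set-2 ash1(Y888F) over H3G34R. Called genes ranged from 2754 to 4565 for set-2 ash1(Y888F) over H3G34R (4435 with all libraries) and from 1388 to 3766 for set-2 H3G34R over set-2 ash1(Y888F) (3264 with all). Called genes of the sulphur list ranged from 5 to 11 for set-2 H3G34R over H3G34R and from 6 to 13 over set-2 ash1(Y888F), with 11 each on all libraries. Where a genotype kept 1 library, it was assumed to vary like the others. NCU03535 has no value on reads without regard to strand, nor antisense of scon-2 with antisense library sizes, since neither passed the filter; the alternatives for NCU03535 were chosen after seeing the data. The promoter motif search was not run, since no promoter sequences were used here. No paired analysis was possible because the labels give no replicate numbers that libraries of different genotypes share. Depth limits the calls of ars-1 between the genotypes labelled set-2 (17 to 38 reads) and the antisense of scon-2 (4 to 12 reads).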
